A study of Rattus norvegicus with 12 samples.

Results

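The lysyl oxidase family has 5 genes in the rat, Lox, Loxl1, Loxl2, Loxl3 and Loxl4, and all 5 were found by symbol among the 14275 genes of the authors' normalized table. Their Ensembl identifiers are ENSRNOG00000014426, ENSRNOG00000008680, ENSRNOG00000016758, ENSRNOG00000061373 and ENSRNOG00000015727, which link them to the 43360 genes of the raw count table. Poly(A) RNA had been sequenced from NRK-49F cells, a fibroblast line from normal rat kidney. The libraries form 4 groups of 3: cells transfected with a plasmid for Flag-tagged human HDAC1 and given TGFB1, cells with the empty vector pcDNA3.1 and TGFB1, cells with HDAC1 and vehicle, and cells with the empty vector and vehicle. TGFB1 was given at 2 ng/ml for 24 hours in medium with 0.5% serum, and vehicle was that medium alone. The groups follow the sample titles, since the series text describes all cells as treated and the treatment field runs on as a numbered series. HDAC1 is a histone deacetylase, and TGFB1 is a cytokine under which fibroblasts become contractile myofibroblasts that lay down matrix. The labels do not give the share of cells that took up plasmid, nor say whether replicates were separate cultures, so p-values measure the spread between these libraries.

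Lysyl oxidases are secreted copper enzymes that oxidise lysine and hydroxylysine residues of collagen and elastin to reactive aldehydes. The aldehydes then form the covalent crosslinks that make fibres stiff and hard to degrade, a step long linked to scarring in the kidney and other organs. LOX is made as a proenzyme that the BMP1 proteinase cuts. LOXL1 is tied to elastic fibres, and LOXL2, LOXL3 and LOXL4 share scavenger receptor domains ahead of the catalytic domain.

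TGFB1 split the family, with Lox and Loxl2 higher and Loxl1, Loxl3 and Loxl4 lower. HDAC1 left Loxl3 at 0.619 of its empty vector level with TGFB1 and 0.675 in vehicle, and it was called under both treatments. No gene of the family passed the test for a difference between the HDAC1 effects with TGFB1 and in vehicle.

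Promoter sequences are shown for the 3 members that had a promoter entry. These 3 are also the members that fell with TGFB1, so they cannot be compared with members that rose. They are the 250 bases before the annotated start, 5′ to 3′ on the strand of the gene, from RefSeq on build GRCr8. They lie at chr8:67612225-67612474 (minus strand) for Loxl1, chr4:117098108-117098357 (plus strand) for Loxl3 and chr1:251365578-251365827 (minus strand) for Loxl4. The table held these 3 of the 5 members, and not Lox or Loxl2. Capitals mark the letters CAGAC (SMAD), GGAATG (TEAD) and GGGCGG (GC box) on either strand.
Loxl1: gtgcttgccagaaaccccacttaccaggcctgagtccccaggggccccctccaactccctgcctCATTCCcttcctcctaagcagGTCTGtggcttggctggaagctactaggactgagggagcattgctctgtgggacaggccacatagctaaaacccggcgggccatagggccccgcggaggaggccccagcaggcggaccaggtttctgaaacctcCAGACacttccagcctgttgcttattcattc
Loxl3: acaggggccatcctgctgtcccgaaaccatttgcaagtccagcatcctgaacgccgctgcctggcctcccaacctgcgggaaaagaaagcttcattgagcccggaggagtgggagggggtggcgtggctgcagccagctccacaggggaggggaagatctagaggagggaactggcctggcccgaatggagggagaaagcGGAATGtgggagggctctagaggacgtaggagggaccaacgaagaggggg
Loxl4: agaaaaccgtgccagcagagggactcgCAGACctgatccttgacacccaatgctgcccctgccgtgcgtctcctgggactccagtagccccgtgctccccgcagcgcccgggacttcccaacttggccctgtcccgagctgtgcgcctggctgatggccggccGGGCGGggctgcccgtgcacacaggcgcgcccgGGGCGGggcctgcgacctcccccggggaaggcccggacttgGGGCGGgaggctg
In these windows SMAD letters stood at -165 and -31 in Loxl1 and at -223 in Loxl4, counted from the start. The TEAD letters stood at -186 in Loxl1 and at -50 in Loxl3. Loxl4 alone of the 3 held GC boxes, at -87, -54 and -13, and its window was 72.8% G and C, against 62.4% in Loxl3, 60.4% in Loxl1 and a median of 51.2% over all promoters. Of 33469 promoter windows, 42.9% held the SMAD letters, 12.1% the TEAD letters and 30.5% a GC box. The AP-1 letters TGANTCA were in 0 of the 3 windows and in 6.34% of all. A TATA box, searched as TATAAA, was in 0 of the 3 and in 12.9% of all. An E-box (CANNTG, held by 65.5% of all) was in Loxl3 alone, at -223. None of these marked matches overlap, and a match is a run of letters, not a shown binding site.

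Library totals ran from 18661922 to 26570112 counts for HDAC1 with TGFB1, 20844186 to 23619883 for the empty vector with TGFB1, 24662270 to 36652084 for HDAC1 with vehicle and 18397093 to 27119357 for the empty vector with vehicle. Each member was well covered, with 1018 (Loxl4) to 9852 (Lox) counts per library. Hdac1 averaged 421 ± 43.3 CPM (CPM are counts scaled to a common library size with TMM factors) with the HDAC1 plasmid and 209.7 ± 4.13 CPM with the empty vector in vehicle (SD, n = 3). With TGFB1 it averaged 464 ± 43.5 CPM with HDAC1 and 267 ± 21.1 CPM with the empty vector. Hdac1l, listed in the files as a separate rat gene, was at 1211, 802 and 1257 CPM with HDAC1 and TGFB1, against 8.09, 8.64 and 11.2 CPM with the empty vector and TGFB1. In vehicle it was at 1297, 852 and 1367 CPM with HDAC1, against 0.530, 15.1 and 9.23 CPM with the empty vector. Reads of the human plasmid that fell on these rat genes cannot be told apart from their own. Of 10 fibroblast markers, 8 were measured, summing to at least 8968 CPM in every library, and Thy1 and Lum were not among the genes tested. The kidney tubule markers tested (2 of 8) summed to 2.10 CPM at most, the endothelial ones (4 of 5) to 5.31 CPM and the leukocyte one (Cd68, 1 of 5) to 10.1 CPM. Libraries also held heart and brain transcripts at unequal levels. The 13 heart genes summed to 120.1 to 138.9 CPM with HDAC1 and TGFB1, 365 to 461 CPM with the empty vector and TGFB1, and 196 to 383 CPM with HDAC1 and vehicle. In the empty vector vehicle group the sum was 55.3 CPM for replicate 1, with 323.5 CPM for replicate 2 and 343.5 CPM for replicate 3. The brain genes (11 of 12 tested) summed to 12.5 CPM in that replicate and to at least 24.95 CPM in every other library. With TGFB1 the brain genes summed to 24.95 to 27.5 CPM with HDAC1 and to 76.3 to 80.8 CPM with the empty vector. Under TGFB1 the heart and brain sums thus separate the 2 plasmids, and the covariate used below is confounded with HDAC1. A call lost with it there does not tell the 2 apart. For the genes named below, a call that changes without empty vector vehicle replicate 1 or with a covariate for these transcripts is given beside the result.

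**Figure D1:**
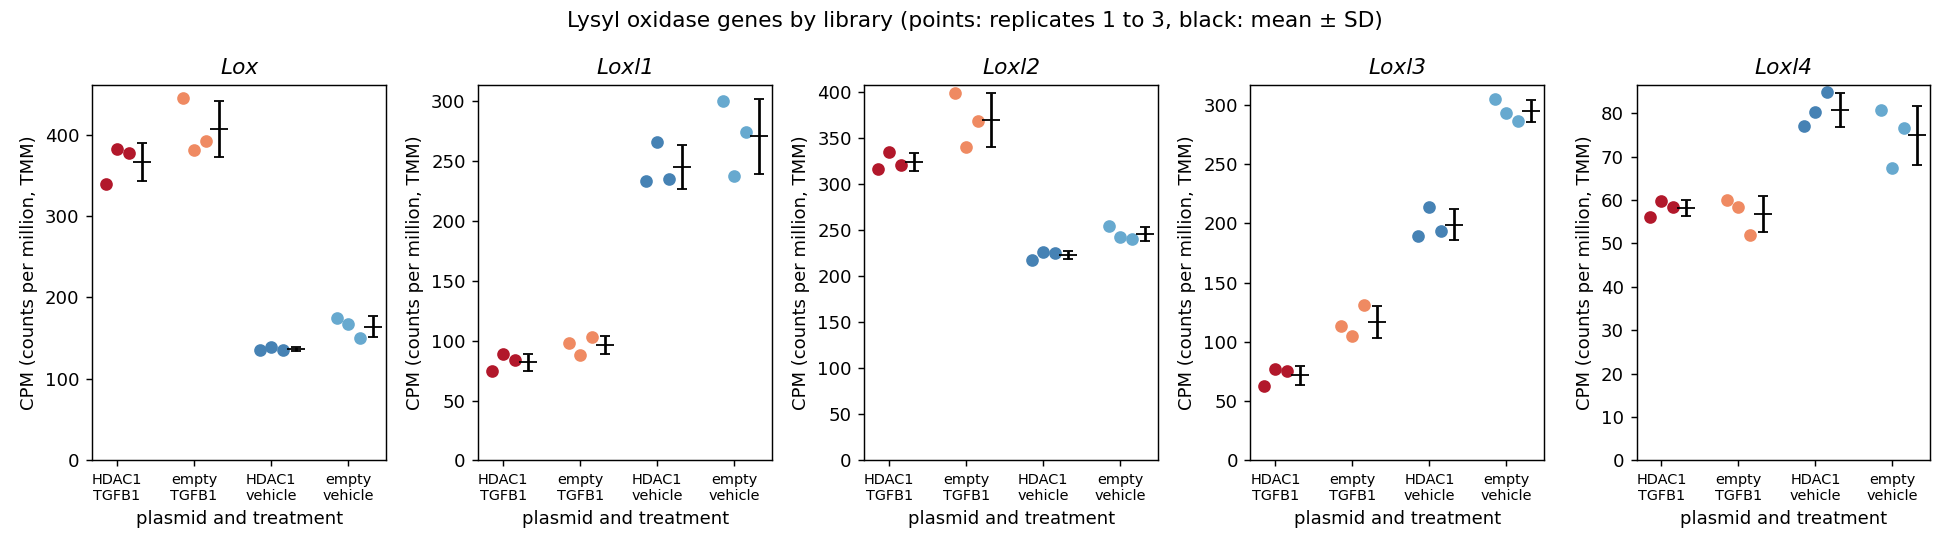
Each panel plots 1 gene in CPM (vertical axis, from 0) for the 4 groups of plasmid and treatment, with coloured points for replicates 1 to 3 and a black bar for mean ± SD. Lox and Loxl2 are high in the TGFB1 groups, Loxl1, Loxl3 and Loxl4 are high in the vehicle groups, and Loxl3 is also lower with HDAC1 than with the empty vector in both treatments.

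The first comparison was TGFB1 against vehicle. All 5 genes passed the test with both plasmids (edgeR's quasi-likelihood test, Benjamini-Hochberg adjusted p under 0.05), 2 of them higher and 3 lower. Calls were common in this comparison: of the 14601 genes tested, 49.1% were called with HDAC1 (24.9% higher and 24.2% lower) and 50.9% with the empty vector (25.9% higher and 25.0% lower). A call alone therefore sets the family little apart, and the sizes are given for each gene. Where libraries are said below not to overlap, the share of all genes that separate in this way is not given. In bulk RNA, fewer cells that make a transcript and less of it per cell cannot be told apart.

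Lox, the founding member and the main crosslinker of fibrillar collagen, was at 339.7, 382 and 377 CPM with HDAC1 and TGFB1 and at 445, 381 and 392 CPM with the empty vector and TGFB1. In vehicle it was at 136, 139.6 and 135 CPM with HDAC1 and at 175, 167 and 150.5 CPM with the empty vector. Every TGFB1 library lay above every vehicle library. With HDAC1 it rose 2.68-fold (edgeR log2 fold change 1.42 ± 0.073 SE, adjusted p = 1.59e-12), and 1.95% of all genes tested had a log2 fold change at least as high. With the empty vector it rose 2.48-fold (1.31 ± 0.073 SE, edgeR adjusted p = 5.91e-12), and 2.90% of genes were at least as high.

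Loxl2, which crosslinks type IV collagen of basement membranes as well as fibrillar collagen, moved the same way by less. Its levels were 316, 335 and 321 CPM with HDAC1 and TGFB1, 399, 340.4 and 369 CPM with the empty vector and TGFB1, 218, 226 and 225 CPM with HDAC1 and vehicle, and 254, 243 and 240.5 CPM with the empty vector and vehicle. Again the TGFB1 and vehicle libraries did not overlap. It rose by 45.4% with HDAC1 (log2 fold change 0.54, edgeR adjusted p = 4.90e-07) and by 50.2% with the empty vector (0.59, edgeR adjusted p = 1.19e-07). At least as high were 9.49% of all genes with HDAC1 and 13.0% with the empty vector.

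Loxl1, the elastic fibre member, moved the other way. It was at 74.4, 88.5 and 83.5 CPM with HDAC1 and TGFB1 and at 97.8, 88.2 and 103 CPM with the empty vector and TGFB1. In vehicle it stood at 234, 266 and 235 CPM with HDAC1 and at 300.4, 238 and 275 CPM with the empty vector. The lowest vehicle library was over the highest TGFB1 library. The fall was to 0.336 of the vehicle level with HDAC1 (edgeR log2 fold change -1.57 ± 0.088 SE, adjusted p = 1.08e-11) and to 0.355 with the empty vector (-1.49 ± 0.087 SE, edgeR adjusted p = 2.17e-11). At least as low were 3.32% of all genes with HDAC1 and 2.88% with the empty vector.

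Loxl3, whose loss in mice causes cleft palate and spine defects, was at 62.6, 77.4 and 75.6 CPM with HDAC1 and TGFB1 and at 113.5, 105 and 131 CPM with the empty vector and TGFB1. In vehicle it was at 189.5, 214 and 193 CPM with HDAC1 and at 305, 293 and 286 CPM with the empty vector. The 4 groups did not overlap, and their order from low to high was that of the preceding values. TGFB1 lowered it to 0.362 of the vehicle level with HDAC1 (edgeR log2 fold change -1.46 ± 0.085 SE, adjusted p = 1.65e-11) and to 0.395 with the empty vector (-1.34 ± 0.084 SE, edgeR adjusted p = 5.11e-11). At least as low were 3.94% of all genes with HDAC1 and 3.60% with the empty vector.

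Loxl4, the last of the members with scavenger receptor domains, changed least. It was at 56.2, 59.7 and 58.5 CPM with HDAC1 and TGFB1, 59.9, 58.3 and 52.1 CPM with the empty vector and TGFB1, 77.0, 80.3 and 84.9 CPM with HDAC1 and vehicle, and 80.8, 67.5 and 76.6 CPM with the empty vector and vehicle. Vehicle libraries all lay above TGFB1 libraries. It fell by 27.9% with HDAC1 (log2 fold change -0.47, edgeR adjusted p = 2.03e-05) and by 24.3% with the empty vector (-0.40, edgeR adjusted p = 0.000120). At least as low were 20.8% of all genes with HDAC1 and 21.5% with the empty vector. Without empty vector vehicle replicate 1, the effects of TGFB1 with the empty vector were 1.34 for Lox, -1.43 for Loxl1, 0.60 for Loxl2, -1.33 for Loxl3 and -0.36 for Loxl4 on the log2 scale, and all 5 were still called.

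**Figure D2:**
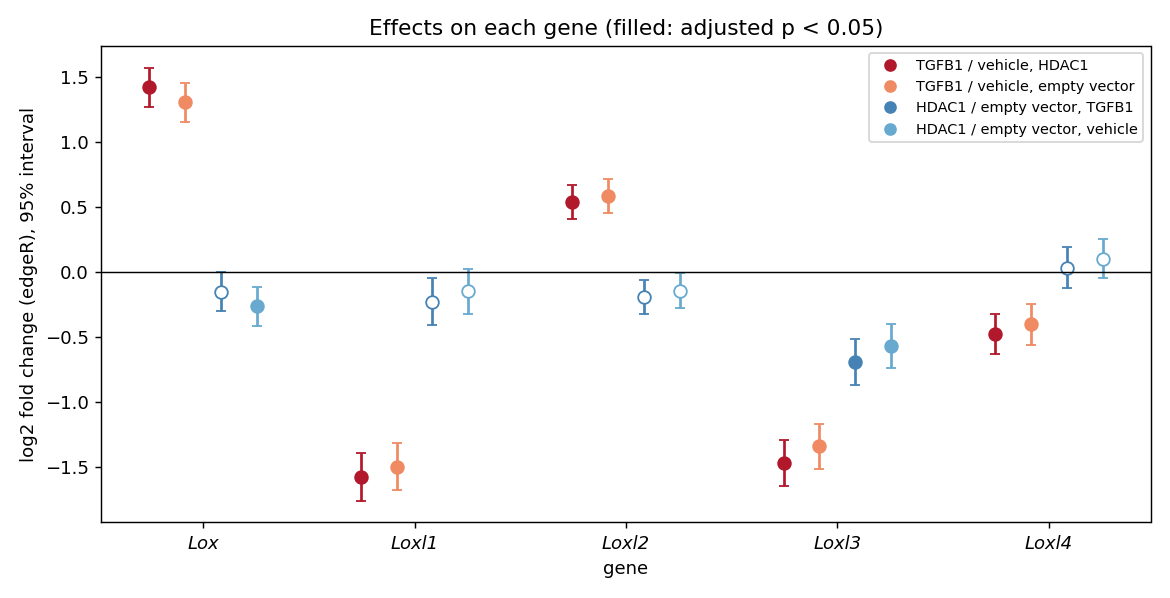
The plot gives log2 fold changes from edgeR (vertical axis) with 95% intervals for each gene, with 1 point per comparison and filled points for adjusted p under 0.05. The TGFB1 effects run from 1.42 for Lox to -1.57 for Loxl1 and lie close together for the 2 plasmids, while of the HDAC1 effects those on Loxl3 and that on Lox in vehicle are filled.

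The opposite moves left the sum of the family nearly level. The 5 genes summed to 903 ± 48.5 CPM with HDAC1 and TGFB1 and 884 ± 37.5 CPM with HDAC1 and vehicle, and to 1045 ± 71.4 CPM with the empty vector and TGFB1 and 1050.0 ± 56.7 CPM with the empty vector and vehicle (SD, n = 3). Its make-up differed instead. Of the counts of the 5 genes, Lox took 40.6 ± 0.606% and 38.9 ± 1.25% with TGFB1 (HDAC1 and empty vector), against 15.5 ± 0.412% and 15.6 ± 0.970% in vehicle. Loxl1 took 9.09 ± 0.310% and 9.22 ± 0.535% with TGFB1, against 27.7 ± 0.960% and 25.7 ± 1.88% in vehicle. These are shares of reads, which depend on transcript length, so they compare libraries and not genes, and they do not depend on how libraries were scaled.

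**Figure D3:**
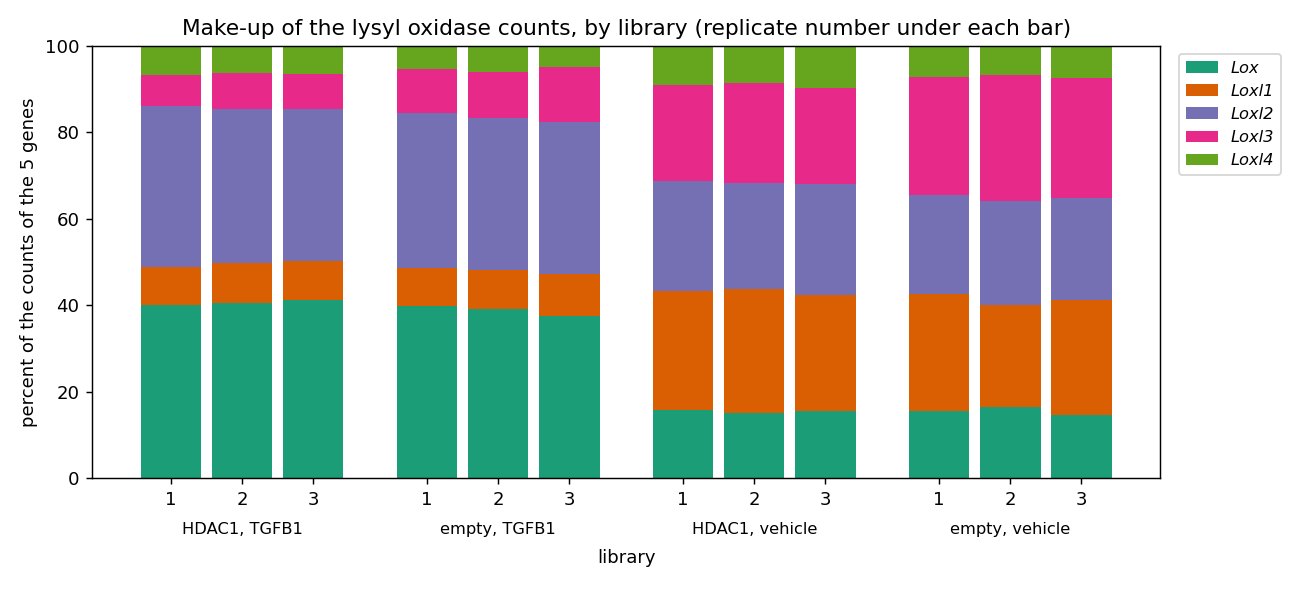
Stacked bars give the percent of the counts of the 5 genes that each gene took, 1 bar per library with its replicate number. Lox takes 37.5 to 41.2% with TGFB1 and 14.6 to 16.6% in vehicle, and Loxl3 takes 7.38 to 12.5% with TGFB1 and 22.1 to 29.1% in vehicle.

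Ratios within a library showed the same split. The count ratio of Lox to Loxl3 was 5.12 ± 0.265 with HDAC1 and TGFB1, 3.52 ± 0.476 with the empty vector and TGFB1, 0.690 ± 0.0326 with HDAC1 and vehicle and 0.557 ± 0.0267 with the empty vector and vehicle. Against Col1a1, which encodes a type I collagen chain that LOX crosslinks, the ratio of Lox counts was 0.0895 ± 0.00929 with HDAC1 and TGFB1 and 0.0413 ± 0.00676 with HDAC1 and vehicle. With the empty vector the same ratio was 0.0712 ± 0.00351 with TGFB1 and 0.0316 ± 0.000982 in vehicle. Lox thus gained on Col1a1 in both plasmid groups. Col1a1 itself had a log2 fold change with TGFB1 of 0.29 with HDAC1 (edgeR adjusted p = 0.0993) and 0.14 with the empty vector (edgeR adjusted p = 0.424). Lox did not gain on Col3a1, another collagen gene, which rose 2.84-fold with HDAC1 and 3.13-fold with the empty vector. The ratio of Lox to Col3a1 counts with HDAC1 was 0.572 ± 0.033 with TGFB1 and 0.619 ± 0.117 in vehicle. With the empty vector it was 0.506 ± 0.0957 with TGFB1 and 0.625 ± 0.0316 in vehicle.

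The second comparison was HDAC1 against the empty vector. With TGFB1 1 of the 5 genes fell, Loxl3, and 0 rose, in a comparison where 6.53% of all genes were called, 4.36% lower and 2.17% higher. In vehicle 2 fell, Loxl3 and Lox, and 0 rose, against 14.0% of all genes called, 7.32% lower and 6.64% higher. At an unadjusted p under 0.05, 3 genes were lower and 0 higher in either treatment, but the share of all genes at that threshold is not given here. DESeq2 called 2 lower and 0 higher in each. Over all 14601 genes DESeq2 called 747 lower and 594 higher with TGFB1, and 1135 lower and 1135 higher in vehicle. The family's median log2 fold change was -0.19 with TGFB1 and -0.15 in vehicle, beside 0.00 and -0.01 over all genes.

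Loxl3 had the largest HDAC1 effect of the 5. With the values given above, its mean with TGFB1 was 71.9 ± 8.06 CPM with HDAC1 and 116 ± 13.4 CPM with the empty vector, and in vehicle 199 ± 13.1 CPM against 295 ± 9.34 CPM (SD, n = 3). No HDAC1 library overlapped an empty vector library of the same treatment, which some genes with small, uncalled effects also showed. The level fell by 38.1% with TGFB1 (edgeR log2 fold change -0.69 ± 0.085 SE, adjusted p = 0.000104) and fell by 32.5% in vehicle (-0.57 ± 0.082 SE, edgeR adjusted p = 0.000105). Of all genes, 6.34% with TGFB1 and 2.95% in vehicle were at least as low. Without empty vector vehicle replicate 1 the effect in vehicle was -0.54 (edgeR adjusted p = 0.00107), and with the covariate for heart and brain transcripts it was -0.70 with TGFB1 and -0.56 in vehicle, called in both (edgeR adjusted p = 0.00848 and 0.000506). Its share of the family's counts with TGFB1 was 7.94 ± 0.495% with HDAC1 and 11.2 ± 1.22% with the empty vector, and in vehicle 22.5 ± 0.531% against 28.1 ± 0.902%.

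Lox fell by 16.7% with HDAC1 in vehicle, to 137 ± 2.43 CPM, against 164 ± 12.5 CPM with the empty vector (log2 fold change -0.26 ± 0.073 SE, edgeR adjusted p = 0.0176). The libraries did not overlap, and 13.2% of all genes were at least as low. This call ended without empty vector vehicle replicate 1 (-0.21) or 2 (-0.23), without HDAC1 vehicle replicate 1 (-0.24) or 3 (-0.24), and with the covariate (-0.23, edgeR adjusted p = 0.0664). With TGFB1 the Lox groups overlapped, and the log2 fold change was -0.15 (95% interval -0.30 to 0.00, edgeR adjusted p = 0.219).

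Loxl2 was lower in each of the 3 HDAC1 libraries than in any empty vector library under both treatments, by small amounts that edgeR did not call. Its log2 fold change was -0.19 with TGFB1 (95% interval -0.32 to -0.06, edgeR adjusted p = 0.0757) and -0.14 in vehicle (-0.27 to -0.01, edgeR adjusted p = 0.153). The value with TGFB1 was called by DESeq2 (-0.18, adjusted p = 0.0469) and without empty vector TGFB1 replicate 2 (-0.22, edgeR adjusted p = 0.0375). Of all genes, 20.8% with TGFB1 and 25.8% in vehicle were at least as low. The share of all genes whose groups do not overlap is not given here, so separation alone sets no gene apart.

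Loxl1 and Loxl4 were not called in either treatment. The Loxl1 log2 fold change was -0.23 with TGFB1 (95% interval -0.41 to -0.04, edgeR adjusted p = 0.128) and -0.15 in vehicle (-0.32 to 0.03, edgeR adjusted p = 0.279). For Loxl4 it was 0.03 with TGFB1 (-0.12 to 0.19, edgeR adjusted p = 0.832) and 0.11 in vehicle (-0.05 to 0.26, edgeR adjusted p = 0.384). Groups overlapped for both genes, and neither interval for Loxl4 reached past 0.26 on the log2 scale.

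Whether HDAC1 altered the response to TGFB1 was tested as the difference between its effects with TGFB1 and in vehicle. Of the 5 genes, 0 were called by edgeR, 0 had an unadjusted p under 0.05 and DESeq2 called 0, while 0.479% of all genes were called. The differences on the log2 scale were 0.12 for Lox (95% interval -0.10 to 0.33), -0.08 for Loxl1 (-0.33 to 0.17), -0.05 for Loxl2 (-0.23 to 0.14), -0.12 for Loxl3 (-0.37 to 0.12) and -0.07 for Loxl4 (-0.29 to 0.15), with edgeR adjusted p from 0.690 to 0.876. These intervals leave room for differences of up to 0.37.

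Across the 12 libraries, log2 CPM of Lox and Loxl2 had a Pearson r of 0.982, and that of Loxl1 and Loxl3 of 0.951. Lox against Loxl1 gave -0.942 and Loxl2 against Loxl3 -0.728, the weakest of the 10 pairs in size. These values describe libraries that share a treatment, so most of each r is the difference between TGFB1 and vehicle. Among 11576 genes with a symbol and a mean of at least 1 CPM, the genes most like Lox were Col5a2, a chain of type V collagen (r = 0.998), F2r, the thrombin receptor (0.997), and Tcf7, a transcription factor of the WNT pathway (0.996). Nearest to Loxl2 were the integrin subunit gene Itgb3 (0.991), Pycr1 of proline synthesis (0.990) and the tropomyosin gene Tpm4 (0.990). Nearest to Loxl1 were C19h1orf198 (0.994), the lipid phosphatase gene Plpp1 (0.994) and the integrin subunit gene Itgb4 (0.994). Those of Loxl4 were Mid1, a ubiquitin ligase (0.982), the receptor gene Gprc5b (0.978) and the tyrosine phosphatase gene Ptprm (0.977).

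The genes nearest to Loxl3 were Ifi27l2a, an interferon-inducible gene in the mouse (r = 0.995), Casp1, the inflammatory caspase (0.995), and Dok1, an adaptor of tyrosine kinase signalling (0.993). They shared both of its directions. Ifi27l2a averaged 74.2 ± 9.32 CPM with HDAC1 and TGFB1, 161 ± 38.3 CPM with the empty vector and TGFB1, 575 ± 104 CPM with HDAC1 and vehicle and 1037 ± 39.5 CPM with the empty vector and vehicle. Casp1 averaged 23.8 ± 1.43, 34.0 ± 4.66, 51.6 ± 3.45 and 66.4 ± 2.51 CPM in those groups. The HDAC1 effects on Ifi27l2a on the log2 scale were -1.11 with TGFB1 (edgeR adjusted p = 0.00591) and -0.85 in vehicle (edgeR adjusted p = 0.00677). For Casp1 they were -0.51 with TGFB1 (edgeR adjusted p = 0.00216) and -0.36 in vehicle (edgeR adjusted p = 0.00503). By their rule these genes were picked for likeness over the same libraries, so the shared directions are a description. With the covariate for heart and brain transcripts the HDAC1 effect on Ifi27l2a with TGFB1 was -1.09 and was not called (edgeR adjusted p = 0.0543). The leukocyte marker Cd68 stood in the same group order, at 1.90 to 2.65 CPM with HDAC1 and TGFB1, 2.83 to 4.15 CPM with the empty vector and TGFB1, 4.48 to 6.89 CPM with HDAC1 and vehicle and 8.64 to 10.1 CPM with the empty vector and vehicle. The other 4 leukocyte markers were not among the genes tested, and the part of such cells in these results was not tested.

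The genes that work with these enzymes were taken as 5 lists, of substrates, lysine hydroxylation, proenzyme activation and scaffolds, copper supply and other amine oxidases. Of 61 listed genes, 47 were tested. With TGFB1, 18 were higher and 15 lower in HDAC1 cells, and 18 higher and 12 lower in empty vector cells. That is 38.3% higher and 31.9% lower, against 24.9% and 24.2% of all genes, in HDAC1 cells, and 38.3% higher and 25.5% lower, against 25.9% and 25.0% of all genes, in empty vector cells. Counts of each list below are to be read against the same shares of all genes. Their median log2 fold changes were 0.10 in HDAC1 cells and 0.09 in empty vector cells, beside -0.02 and 0.01 over all genes.

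Of 9 substrates tested, TGFB1 raised 7 and lowered 1 in HDAC1 cells, and raised 6 and lowered 0 in empty vector cells. Col5a2 averaged 999.6 ± 54.3 CPM with HDAC1 and TGFB1 and 1087 ± 62.8 CPM with the empty vector and TGFB1, against 367 ± 18.3 and 443 ± 32.2 CPM in vehicle. It rose 2.72-fold in HDAC1 cells and 2.45-fold in empty vector cells (edgeR adjusted p = 8.76e-13 and 4.38e-12). In the same order Col5a3 rose by 1.07 and 1.10 on the log2 scale. Eln, the elastin gene, was the one lowered (edgeR adjusted p = 0.00837 in HDAC1 cells), and was scarcely measured, at 0.441 ± 0.0898 CPM with HDAC1 and TGFB1 and at most 1.19 ± 0.462 CPM in the other groups. With the covariate its log2 fold change in HDAC1 cells was -0.98, not called (edgeR adjusted p = 0.0869). Without empty vector vehicle replicate 1 that in empty vector cells was -0.90 and called (edgeR adjusted p = 0.0429).

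Among 10 lysine hydroxylation and collagen folding genes, TGFB1 raised 3 with either plasmid and lowered 1 in HDAC1 cells and 2 in empty vector cells. Plod2, which hydroxylates the telopeptide lysines that lysyl oxidases act on, averaged 645 ± 17.7 CPM with HDAC1 and TGFB1 and 645 ± 31.0 CPM with the empty vector and TGFB1. In vehicle it averaged 259.6 ± 16.4 and 280.5 ± 14.4 CPM. On the log2 scale it rose by 1.31 in HDAC1 cells and 1.20 in empty vector cells (edgeR adjusted p = 1.04e-12 and 4.31e-12). Serpinh1, the collagen chaperone, rose by 0.57 and 0.47 in that order. Plod1, which hydroxylates lysines of the helix, moved the other way, at -0.35 in HDAC1 cells and -0.33 in empty vector cells (edgeR adjusted p = 0.000469 and 0.000798).

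Of 18 genes for proenzyme activation and scaffolds, 7 were higher and 7 lower with TGFB1 in HDAC1 cells, and 8 higher and 6 lower in empty vector cells. Postn, a matricellular protein that brings BMP1 to LOX, averaged 39.6 ± 2.52 CPM with HDAC1 and TGFB1 and 46.0 ± 8.73 CPM with the empty vector and TGFB1, against 5.75 ± 0.419 and 7.58 ± 1.77 CPM in vehicle. Its log2 fold changes were 2.79 in HDAC1 cells and 2.62 in empty vector cells (edgeR adjusted p = 5.94e-11 and 1.19e-10). The basement membrane and elastic fibre gene Fbln2 rose by 2.60 in HDAC1 cells and 2.72 in empty vector cells. Fbln5, whose protein binds LOXL1 on elastic fibres, went the way of Loxl1, with 60.04 ± 3.37 CPM with HDAC1 and TGFB1 and 81.6 ± 2.43 CPM with the empty vector and TGFB1, against 158 ± 2.71 and 249.8 ± 16.1 CPM in vehicle. On the log2 scale TGFB1 shifted it by -1.39 in HDAC1 cells and by -1.61 in empty vector cells (edgeR adjusted p = 3.64e-13 and 3.60e-14).

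Of 7 copper supply genes, TGFB1 raised 1 with either plasmid and lowered 5 in HDAC1 cells and 3 in empty vector cells. With the covariate 3 and 2 were called lower. The one that rose was Slc31a1, the copper importer of the cell surface, by 0.36 in HDAC1 cells and 0.33 in empty vector cells (edgeR adjusted p = 4.19e-05 and 9.62e-05). In that order the metallothionein gene Mt2A fell by 0.90 and 0.97 (edgeR adjusted p = 0.00181 and 0.00123). Among 3 other amine oxidases, which are not related to this family in sequence, Maoa was at -0.56 in HDAC1 cells and -0.43 in empty vector cells (edgeR adjusted p = 1.04e-05 and 0.000239) and the other 2 were not called.

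**Figure D4:**
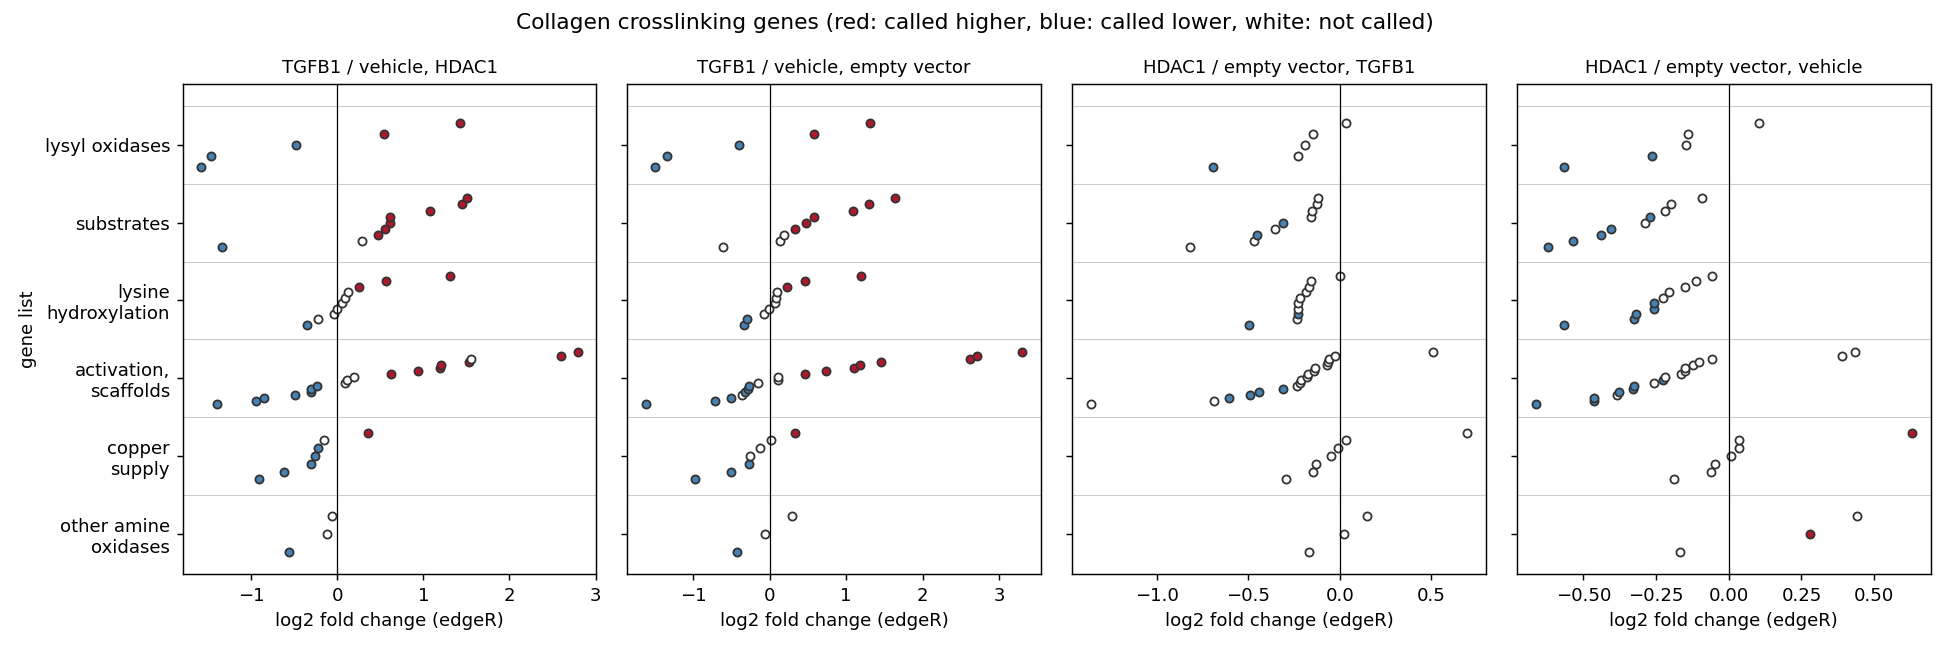
Each point is 1 gene at its log2 fold change (horizontal axis, scaled for each panel), by gene list, in the 4 comparisons, with red for called higher, blue for called lower and white for not called. With TGFB1 the substrates lie mostly to the right while the lysyl oxidases split. With HDAC1 41 of 47 genes with TGFB1 and 39 of 47 in vehicle lie below 0, most of them by less than 0.5.

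With HDAC1, called genes of these lists were nearly all lower. With TGFB1 8 of the 47 fell and 0 rose, and in vehicle 17 fell and 2 rose. That is 17.02% lower with TGFB1, against 4.36% of all genes lower and 2.17% higher. In vehicle it is 36.2% lower and 4.26% higher, against 7.32% and 6.64% of all genes. With TGFB1 18 of the 47 were lower and 2 higher at an unadjusted p under 0.05, but the share of all genes at that threshold is not given here. DESeq2 called 9 of the 47 lower and 1 higher with TGFB1, against 747 lower and 594 higher of all 14601 genes. Median log2 fold changes of the 47 genes were -0.17 with TGFB1 and -0.21 in vehicle, beside 0.00 and -0.01 over all genes. By list with TGFB1, 2 of 9 substrates, 2 of 10 lysine hydroxylation genes and 4 of 18 activation and scaffold genes fell, and with the covariate for heart and brain transcripts 0, 0 and 1. The median log2 fold changes of these lists were -0.34, -0.26 and -0.24 with the covariate and -0.31, -0.22 and -0.19 without it. In vehicle 5, 5 and 7 fell. These counts were 4, 2 and 3 without empty vector vehicle replicate 1, with medians of -0.35, -0.18 and -0.17, and 5, 4 and 5 with the covariate, with medians of -0.26, -0.22 and -0.19. The medians of all libraries without the covariate were -0.29, -0.24 and -0.22.

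Fbln5 was the gene of these lists with the smallest adjusted p for HDAC1 in both treatments, at -0.44 with TGFB1 and -0.66 in vehicle (edgeR adjusted p = 0.000486 and 2.04e-06). P3h3, of the complex that hydroxylates helical lysines, averaged, with TGFB1, 98.5 ± 4.36 CPM with HDAC1 and 139 ± 17.2 CPM with the empty vector, and in vehicle 115 ± 14.3 CPM against 171 ± 12.7 CPM. Its log2 fold changes were -0.49 with TGFB1 and -0.57 in vehicle (edgeR adjusted p = 0.00417 and 0.000353). Adamts2, a procollagen proteinase, was at -0.49 with TGFB1 and -0.46 in vehicle (edgeR adjusted p = 0.00400 and 0.00139). Bmp1, which activates LOX, was at -0.06 with TGFB1 (edgeR adjusted p = 0.700) and -0.32 in vehicle (edgeR adjusted p = 0.00777). Type IV collagen genes Col4a2 and Col4a1 fell in vehicle, at -0.44 and -0.41 (edgeR adjusted p = 0.00126 and 0.00182), as did the type I chain Col1a2, at -0.45 with TGFB1 and -0.54 in vehicle (edgeR adjusted p = 0.0295 and 0.00503). The genes that rose in vehicle were Mt2A, by 0.63, and Maoa, by 0.28 (edgeR adjusted p = 0.0404 and 0.0240). The Mt2A call ended without empty vector vehicle replicate 1 (0.54, edgeR adjusted p = 0.120) and with the covariate (0.60, edgeR adjusted p = 0.0695). Bmp1 in vehicle was not called without that replicate (-0.26, edgeR adjusted p = 0.0687). With TGFB1 and the covariate, P3h3 (-0.51), Adamts2 (-0.52) and Col1a2 (-0.50) were not called (edgeR adjusted p = 0.0579, 0.0543 and 0.167). For the difference between HDAC1 effects, 0 of the 47 genes were called by edgeR or DESeq2, and 4 were higher and 0 lower at an unadjusted p under 0.05. Here too the share of all genes at that threshold is not given. The part of the unequal heart and brain transcripts in these counts was not tested.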

How the data were processed

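Poly(A) RNA of 12 libraries was analysed from deposited raw counts for each gene and a second, normalized table. The authors, per the submitters' processing notes, trimmed reads with Trim Galore 0.6.7, counted them with featureCounts (Subread 2.0.1) and used DESeq2 1.44. The notes name the build mm10, whereas identifiers are those of rat genes. Which rat build and aligner were used, and how strand and multi-gene reads were treated, is not given in the sources used here. The normalized signal that the authors deposited was tested on the files: each column is the raw count divided by 1 constant per library, for the genes with at least 100 counts in all.

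Genes were kept with filterByExpr of edgeR 4.0.16 (R 4.3.3), libraries were scaled with TMM, and a robust quasi-likelihood model with 1 mean per group was fitted to all 12 libraries (8 residual degrees of freedom). The 14601 genes tested hold at least 99.879% of each library's counts. Tests were two-sided, with Benjamini-Hochberg adjustment over all genes tested and calls under 0.05. Standard errors are the log2 fold change divided by the square root of F, and 95% intervals use the moderated t distribution. The steps were tested on simulated data. Replicates of a group differed by more than sampling noise (chi-square per degree of freedom 3.89 or more). Alternatives were DESeq2 size factors, the DESeq2 1.42.0 test, other filters, a replicate block, fits with only the compared groups, a covariate (mean log2 CPM of heart and brain genes) and leaving out each library. The members, gene lists and tests were chosen with earlier results of these data known. Named genes are the members, up to 3 per list and comparison with the smallest adjusted p, and the 3 most correlated with each member, plus others named with their values (Eln, Col1a1 in the TGFB1 comparison, Bmp1 with TGFB1).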

Additional observations from a re-analysis of the deposited data

How the results depend on the processing

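Of the 5 genes, all kept direction and call for TGFB1 with either plasmid under every alternative run, as did Loxl3 for HDAC1. Over all alternatives the log2 fold change of Loxl3 ran from -0.75 to -0.60 for HDAC1 with TGFB1 and from -0.62 to -0.52 in vehicle. The Lox call for HDAC1 in vehicle ended with the covariate for heart and brain transcripts (-0.23). Leaving out 1 library gave -0.30 to -0.21, and 4 of the 6 fits did not call it. Loxl2 with HDAC1 and TGFB1 gained a call in DESeq2 (-0.18), and ran from -0.22 to -0.13 when leaving out 1 library. Loxl4 with HDAC1 and TGFB1, not called, changed sign with the covariate (-0.044) and ran from -0.023 to 0.074 when leaving out 1 library. The interaction of Loxl1, not called, ran from -0.15 to 0.0060 in those fits. The authors' scaling moved no member's log2 ratio of means by more than 0.0118. The causes of these shifts were not tested.

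Counts over all genes moved more. The 70 interaction calls became 270 with DESeq2, 479 with no filter on low counts and 0 with the covariate, and ran from 3 to 257 when leaving out 1 library. The 954 HDAC1 calls with TGFB1 became 133 with the covariate, and 237 to 1236 when leaving out 1 library. Since the covariate goes with the plasmid under TGFB1, the drop to 133 does not tell heart and brain transcripts from HDAC1. Those in vehicle (2038) ran from 1144 to 2166. Taken over all groups, same-numbered replicates showed no common deviation: 4 of 18 pairs had a correlation over 0.1 (range -0.363 to 0.368). Of 12 libraries, 3 correlated best with their own number. Between the 2 HDAC1 groups, though, same-numbered pairs gave 0.24, 0.368 and 0.0421, and differently numbered ones -0.297 to 0.0297. A pairing within HDAC1 cells alone was not tested, since the block that follows is shared by all 4 groups. A replicate block gave 784 calls for HDAC1 with TGFB1, 1790 in vehicle, 6915 for TGFB1 with HDAC1, 7197 with the empty vector and 98 for the interaction, and changed no call of a member. List counts without empty vector vehicle replicate 1 or with the covariate were added after seeing the data. Besides the counts given with the HDAC1 comparison, the activation genes called for TGFB1 with the empty vector were 8 higher and 4 lower in either setting, and the copper genes 1 higher and 2 lower. Outlier tests were not made in groups of 3.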

Other observations

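The genes beside each lysyl oxidase gene were looked at after Dok1 had appeared among the genes most like Loxl3. In the RefSeq annotation of GRCr8, used for names and neighbours only, Dok1 is the protein-coding gene next before Loxl3, Htra2 overlaps Loxl3 and Aup1 is next after it. Dok1 averaged 54.1 ± 4.54 CPM with HDAC1 and TGFB1, 70.8 ± 6.21 CPM with the empty vector and TGFB1, 94.8 ± 5.16 CPM with HDAC1 and vehicle and 111 ± 2.31 CPM with the empty vector and vehicle (SD, n = 3). HDAC1 effects on Dok1 were -0.39 with TGFB1 and -0.23 in vehicle on the log2 scale (edgeR adjusted p = 0.00444 and 0.0334), and its TGFB1 effects were -0.81 in HDAC1 cells and -0.66 in empty vector cells (edgeR adjusted p = 1.42e-08 and 2.06e-07). Both HDAC1 calls of Dok1 ended with the covariate for heart and brain transcripts (-0.40 with TGFB1 and -0.23 in vehicle, edgeR adjusted p = 0.0712 and 0.0727), and that in vehicle without empty vector vehicle replicate 1 (-0.21, edgeR adjusted p = 0.130). Htra2, a mitochondrial protease gene, had HDAC1 effects of -0.25 with TGFB1 and -0.10 in vehicle, neither called (edgeR adjusted p = 0.132 and 0.536). Its TGFB1 effects were -0.34 in HDAC1 cells, which was called, and -0.20 in empty vector cells (edgeR adjusted p = 0.00644 and 0.10). Aup1 was not called in any of these comparisons (log2 fold changes from -0.06 to 0.05, edgeR adjusted p from 0.590 to 0.962). The count ratio of Loxl3 to Htra2, which does not depend on scaling, was 1.66 ± 0.0596 with HDAC1 and TGFB1, 2.26 ± 0.115 with the empty vector and TGFB1, 3.63 ± 0.153 with HDAC1 and vehicle and 5.07 ± 0.687 with the empty vector and vehicle. Whether reads are divided correctly between Loxl3 and Htra2 was not tested, since the strand setting is not known here.

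Beside the other members, Entpd4, next before Loxl2, fell with TGFB1 (-0.89 in HDAC1 cells and -0.99 in empty vector cells, edgeR adjusted p = 9.79e-09 and 1.37e-09) while Loxl2 rose. Pyroxd2, next after Loxl4, fell with it (-0.81 and -0.78 in that order, edgeR adjusted p = 5.77e-05 and 5.42e-05), as Stoml1 did beside Loxl1 (-0.48 and -0.54, edgeR adjusted p = 0.000109 and 2.22e-05). Srfbp1, next before Lox, was not called (0.14 with either plasmid, edgeR adjusted p = 0.169 and 0.168). The pseudogene Rps3a-ps12 overlaps Lox in the annotation and is not among the genes with normalized counts. Its part in the Lox counts was not tested. On the other side of Loxl2, R3hcc1 was not called (0.10 in HDAC1 cells and 0.06 in empty vector cells, edgeR adjusted p = 0.254 and 0.480). Tbc1d21, next after Loxl1 and under 1 CPM in every group mean, was not called (-0.36 with either plasmid, edgeR adjusted p = 0.452 and 0.511). R3hcc1l, next before Loxl4, was called in HDAC1 cells (-0.23, edgeR adjusted p = 0.0277) and not in empty vector cells (-0.15, edgeR adjusted p = 0.151). Zfp474, next after Lox, was not among the genes tested. HDAC1 lowered Entpd4 as it did Dok1, at -0.28 with TGFB1 and -0.38 in vehicle (edgeR adjusted p = 0.0480 and 0.00175). The Entpd4 call with TGFB1 ended with the covariate (-0.33, edgeR adjusted p = 0.184). None of the other tested neighbours in this paragraph was called for HDAC1 in either treatment.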
